A study of Arabidopsis thaliana with 6 samples.

Results

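ER bodies are rod-shaped compartments of the endoplasmic reticulum (ER) found in Arabidopsis and its relatives, and the genes described here encode their enzymes, their structural and membrane proteins, a lectin that meets the main enzyme once cells are broken, and the transcription factor that switches the constitutive genes on. The 10 genes were chosen by their identifiers from a list of genes with known roles in ER bodies, out of 28775 genes in the count tables. These genes were chosen with earlier results of these data known. They divide into 8 constitutive members (PYK10, BGLU21, BGLU22, NAI1, NAI2, PBP1, MEB1 and MEB2) and 2 members known to be induced by wounding and jasmonate (BGLU18 and TSA1). The libraries were made from poly(A) RNA of the shoots of 2-week-old Arabidopsis thaliana seedlings, in 3 libraries of the myc2 mutant and 3 of the wild-type accession Col-0, all kept at 22 °C under a day of 16 h light and 8 h dark, without any stated treatment. The study calls the replicates biological. Neither the myc2 allele nor whether replicates came from separate cultures is stated in the labels or methods, and the p-values below measure the spread between these libraries.

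As background, ER bodies hold large amounts of β-glucosidases that are kept in the ER and so stay apart from their substrates until the tissue is damaged. Constitutive ER bodies fill the epidermis of seedlings and the roots, whereas rosette leaves form inducible ER bodies when they are wounded or receive jasmonate. MYC2, a basic helix-loop-helix (bHLH) factor that binds G-box sequences, is a central regulator of the jasmonate response. The study compared chromatin interactions and transcripts of myc2 and Col-0, to learn whether such factors act on genome folding and gene expression.

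In myc2, 4 constitutive members were higher and both inducible members were lower. PYK10, NAI2, PBP1 and MEB2 rose 1.52-fold to 1.95-fold, BGLU18 and TSA1 fell 2.04-fold and 1.65-fold, and NAI1 and MEB1 did not pass the test. BGLU21 and BGLU22 had too few reads to be tested. Thus 6 of the 8 tested members changed, 4 higher and 2 lower, where 36.3% of the 18961 tested genes changed, 17.6% higher and 18.7% lower (edgeR quasi-likelihood test, adjusted p under 0.05). The median log2 fold change (myc2 over Col-0 throughout) was 0.68 over the 6 tested constitutive members and -0.87 over the 2 inducible ones, against 0.01 over all tested genes. As the members were chosen with earlier results known, these counts and medians are a description only. The ranges of the genotypes did not overlap for 7 of the 8 tested members, nor for 49.7% of all tested genes. In whole shoots, fewer cells of a type and less RNA per cell cannot be told apart.

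**Figure D1:**
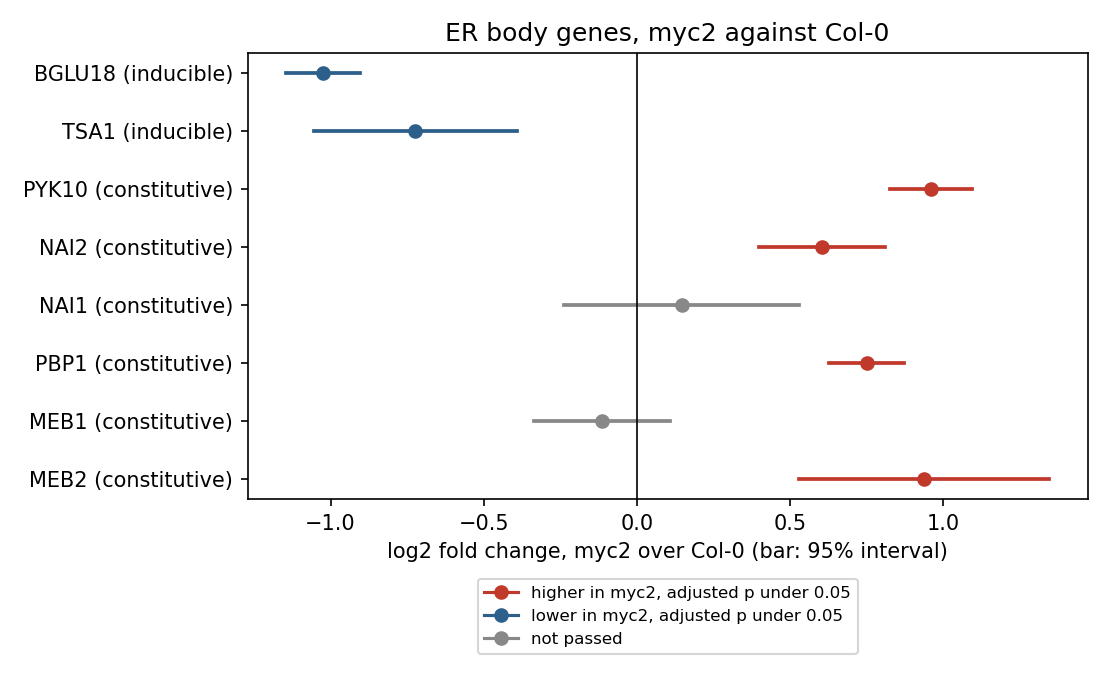
log2 fold change of the 8 tested ER body genes, myc2 over Col-0 (x axis), with 95% intervals as bars; red genes were higher in myc2, blue genes lower, and grey genes did not pass an adjusted p of 0.05. BGLU18 and TSA1 lie left of 0 at -1.03 and -0.72, and PYK10, NAI2, PBP1 and MEB2 lie right of it between 0.61 and 0.96.

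Library totals ranged from 21165967 to 30604815 counts. The headers of the files hold an identifier that was taken here to mark the sequencing run. By this reading, 1 run held the 3 myc2 libraries, another held Col-0 replicates 1 and 2, and a further one held Col-0 replicate 3. Run and genotype therefore cannot be told apart. Replicates within a genotype differed by more than sampling noise (chi-square per degree of freedom 2.46 to 20.1), with the largest values in the comparisons that involve Col-0 replicate 3. MYC2, the mutated gene, was still transcribed, with 1822, 2007 and 1864 reads in myc2 and 4808, 4085 and 5087 reads in Col-0 (71.2 ± 2.26 CPM in myc2 and 192 ± 15.5 CPM in Col-0, SD, n = 3 each, where CPM is the usual unit of counts scaled by the library total), and its log2 fold change was -1.43 with an SE of 0.0709 (edgeR adjusted p = 2.94e-08). Its close relatives MYC3 and MYC4 were higher in myc2, with log2 fold changes of 0.54 (SE 0.105, edgeR adjusted p = 0.00193) and 1.16 (SE 0.0989, edgeR adjusted p = 3.43e-06).

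To set the genes beside the sequences that precede them, the 200 bases upstream of the annotated start were read for the 2 pairs on which the comparison turns, the glucosidases PYK10 and BGLU18 and the ER body formation genes NAI2 and TSA1. They are given 5′ to 3′ on the strand of the gene, from the RefSeq TAIR10.1 assembly, and capitals mark a G-box (CACGTG). PYK10 spans chr3:2840477-2843781 on the minus strand and its window is chr3:2843782-2843981. BGLU18 spans chr1:19514989-19518411 on the plus strand with the window chr1:19514789-19514988, and TSA1 spans chr1:19520603-19525685 on the plus strand with the window chr1:19520403-19520602. NAI2 spans chr3:5397541-5402653 on the minus strand with the window chr3:5402654-5402853.
PYK10: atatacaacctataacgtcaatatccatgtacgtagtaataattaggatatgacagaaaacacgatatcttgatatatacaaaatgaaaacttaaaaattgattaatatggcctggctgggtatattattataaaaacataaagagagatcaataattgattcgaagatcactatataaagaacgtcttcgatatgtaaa
BGLU18: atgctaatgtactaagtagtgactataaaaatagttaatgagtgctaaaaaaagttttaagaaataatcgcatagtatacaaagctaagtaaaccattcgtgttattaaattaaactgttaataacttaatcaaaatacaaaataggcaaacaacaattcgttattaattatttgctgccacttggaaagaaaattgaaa
NAI2: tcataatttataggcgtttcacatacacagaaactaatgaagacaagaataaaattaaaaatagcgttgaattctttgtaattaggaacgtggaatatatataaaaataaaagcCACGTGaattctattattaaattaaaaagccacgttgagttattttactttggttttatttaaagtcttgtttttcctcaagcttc
TSA1: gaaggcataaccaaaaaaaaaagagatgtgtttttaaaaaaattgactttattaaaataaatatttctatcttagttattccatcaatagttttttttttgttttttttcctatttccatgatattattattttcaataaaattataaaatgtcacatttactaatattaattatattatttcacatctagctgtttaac

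Of the 10 members, 1 (NAI2) had a G-box within 200 bases, starting 86 bases before the annotated start, where 5.64% of 27444 protein-coding genes had one. The window was then extended to 1000 bases, in which 14.8% of genes held a G-box and 37.7% held the related hexamer CACATG, read on both strands. NAI1 held 2 G-boxes, at 298 and 832 bases, and a CACATG at 204 bases. MEB2 held a G-box at 667 bases and a CACATG at 402 bases, NAI2 had 2 overlapping CACATG matches at 590 and 592 bases, and PYK10 and BGLU18 each had 1 CACATG, at 931 and 570 bases. No match to these letters was found in the windows of TSA1, PBP1, MEB1, BGLU21 or BGLU22. Hence, of the 6 members that changed, a match within 1000 bases preceded 3 of the 4 that were higher (PYK10, NAI2 and MEB2) and 1 of the 2 that were lower (BGLU18). Of the tested members that did not pass, NAI1 had matches and MEB1 had none. The share of all genes with either hexamer was not counted, and these matches are a description of letters, not of binding.

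The main enzymes of the compartment changed in opposite directions, and their levels were closer to each other in myc2 than in Col-0. PYK10 (AT3G09260, also BGLU23), the most abundant β-glucosidase of constitutive ER bodies, had 459, 469 and 474 CPM in myc2, against 251, 247 and 223 CPM in Col-0. All myc2 libraries were above all Col-0 libraries, with means of 468 ± 7.70 CPM in myc2 and 240 ± 15.0 CPM in Col-0 (SD, n = 3 each). The log2 fold change was 0.96 (SE 0.0612, 95% interval 0.83 to 1.09, edgeR adjusted p = 2.59e-07), a 1.95-fold rise. BGLU18 (AT1G52400), the main glucosidase of inducible ER bodies and an enzyme that releases abscisic acid from its glucose ester, had 496, 507 and 485 CPM in myc2, against 1029, 1027 and 973 CPM in Col-0. Here every myc2 library lay below every Col-0 library, and the log2 fold change was -1.03 (SE 0.0550, 95% interval -1.15 to -0.91, edgeR adjusted p = 5.97e-08), a 2.04-fold fall. The distance of each gene between the genotypes was far larger than the spread within either genotype.

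BGLU21 (AT1G66270, chr1:24699868-24703166, minus strand) and BGLU22 (AT1G66280, chr1:24706512-24709996, minus strand) are glucosidases close to PYK10 that hydrolyse scopolin and are known mainly from roots. BGLU21 had 1, 0 and 0 reads in myc2 and 0, 1 and 0 reads in Col-0. BGLU22 had 1, 9 and 3 reads in myc2 and 6, 7 and 4 reads in Col-0. Both were therefore at the limit of detection in these shoots and no difference was detectable at this depth. They lie 3345 bases apart as near copies of each other, so the counting could have divided or dropped their reads.

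As counts rise with transcript length, levels of different genes were compared as CPM per kb of exon. On that scale PYK10 stood at 259 ± 4.26 in myc2 and 133 ± 8.30 in Col-0, and BGLU18 at 213 ± 4.77 in myc2 and 433 ± 13.7 in Col-0. PYK10 was thus the highest of the 10 members in myc2 and BGLU18 the highest in Col-0, and in both genotypes the values of this pair did not overlap. The order below them was the same in both genotypes. PBP1 followed at 112 ± 1.74 in myc2 and 66.5 ± 0.685 in Col-0, then TSA1 at 31.9 ± 1.54 in myc2 and 52.7 ± 11.3 in Col-0, and NAI2 at 27.1 ± 1.76 in myc2 and 17.8 ± 2.40 in Col-0. Much lower were MEB1 (3.70 ± 0.196 in myc2 and 4.0 ± 0.058 in Col-0), NAI1 (2.06 ± 0.117 in myc2 and 1.88 ± 0.419 in Col-0) and MEB2 (1.35 ± 0.137 in myc2 and 0.704 ± 0.0938 in Col-0). No 2 neighbours in this order had overlapping library values within a genotype among the 8 tested genes.

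**Figure D2:**
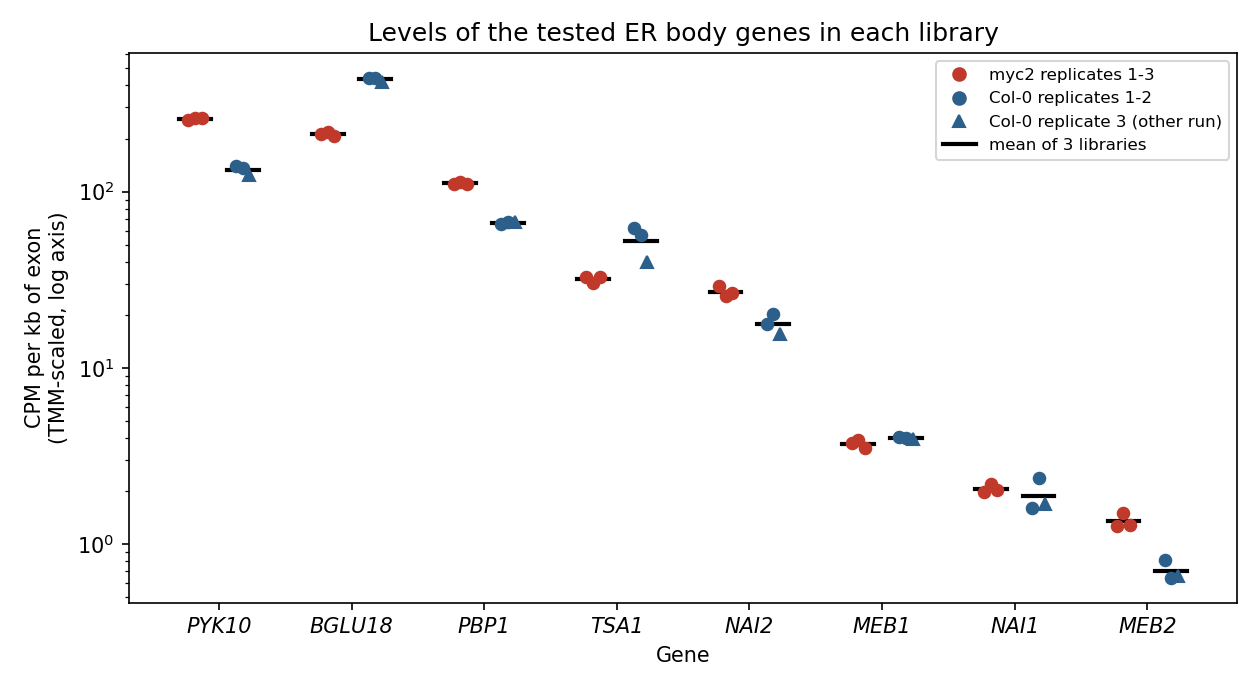
Level of the 8 tested ER body genes in each library, as CPM per kb of exon on a log axis, with myc2 libraries in red to the left and Col-0 libraries in blue to the right. A triangle marks Col-0 replicate 3, which had another run identifier, and black bars are means of 3 libraries. PYK10 and BGLU18 exchange the first place between the genotypes, at 259 and 213 in myc2 and at 133 and 433 in Col-0.

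To compare the pair without any scaling between libraries, the ratio of BGLU18 to PYK10 reads per kb was taken within each library. It was 0.836, 0.837 and 0.791 in myc2, against 3.18, 3.22 and 3.37 in Col-0. On the log2 scale the ratio was -0.28 ± 0.0459 in myc2 and 1.70 ± 0.0459 in Col-0 (SD, n = 3 each), a difference of -1.99, or a ratio 3.97-fold lower in myc2. The exact two-sided permutation test gave p = 0.1, the smallest value that 3 against 3 libraries allow. PYK10 made up 54.5%, 54.4% and 55.8% of the reads per kb of this pair in myc2 and 24.0%, 23.7% and 22.9% in Col-0. The 4 ER body glucosidases together reached 472 ± 5.36 CPM per kb in myc2 and 566 ± 22.0 in Col-0 (exact permutation p = 0.1, the smallest possible).

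The genes of ER body formation repeated the contrast between constitutive and inducible members. NAI2 (AT3G15950), an ER body protein that is needed for constitutive ER bodies to form, had 75.6, 66.6 and 69.3 CPM in myc2, against 46.1, 52.8 and 40.3 CPM in Col-0. The groups did not overlap, with means of 70.5 ± 4.59 CPM in myc2 and 46.4 ± 6.25 CPM in Col-0 and a log2 fold change of 0.61 (SE 0.0948, 95% interval 0.40 to 0.81, edgeR adjusted p = 0.000422). TSA1 (AT1G52410), a homologue of NAI2 that takes part in inducible ER bodies, had 90.6, 83.2 and 90.6 CPM in myc2, against 171, 156 and 111 CPM in Col-0. All myc2 libraries were below all Col-0 libraries, but Col-0 replicate 3 was much nearer to them than the other Col-0 replicates. The means were 88.1 ± 4.24 CPM in myc2 and 146 ± 31.4 CPM in Col-0, and the log2 fold change was -0.72 (SE 0.144, 95% interval -1.05 to -0.39, edgeR adjusted p = 0.00509). With the Col-0 runs fitted as separate groups, TSA1 fell by 0.89 on the log2 scale against Col-0 replicates 1 and 2 (edgeR adjusted p = 1.53e-12) and by 0.33 against Col-0 replicate 3 (edgeR adjusted p = 0.000427). Replicate 3 is a single library, assumed in that fit to vary like the other groups.

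Within a library the ratio of TSA1 to NAI2 reads per kb was 1.13, 1.18 and 1.23 in myc2, against 3.49, 2.78 and 2.58 in Col-0. On the log2 scale this was 0.24 ± 0.0625 in myc2 and 1.55 ± 0.228 in Col-0 (SD, n = 3 each), a difference of -1.31 and a ratio 2.48-fold lower in myc2 (exact permutation p = 0.1, the smallest possible). NAI2 held 47.0%, 45.9% and 44.8% of the reads per kb of the pair in myc2 and 22.3%, 26.5% and 27.9% in Col-0. TSA1 remained the more abundant transcript of this pair in every library, whereas in the glucosidase pair the order turned round.

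**Figure D3:**
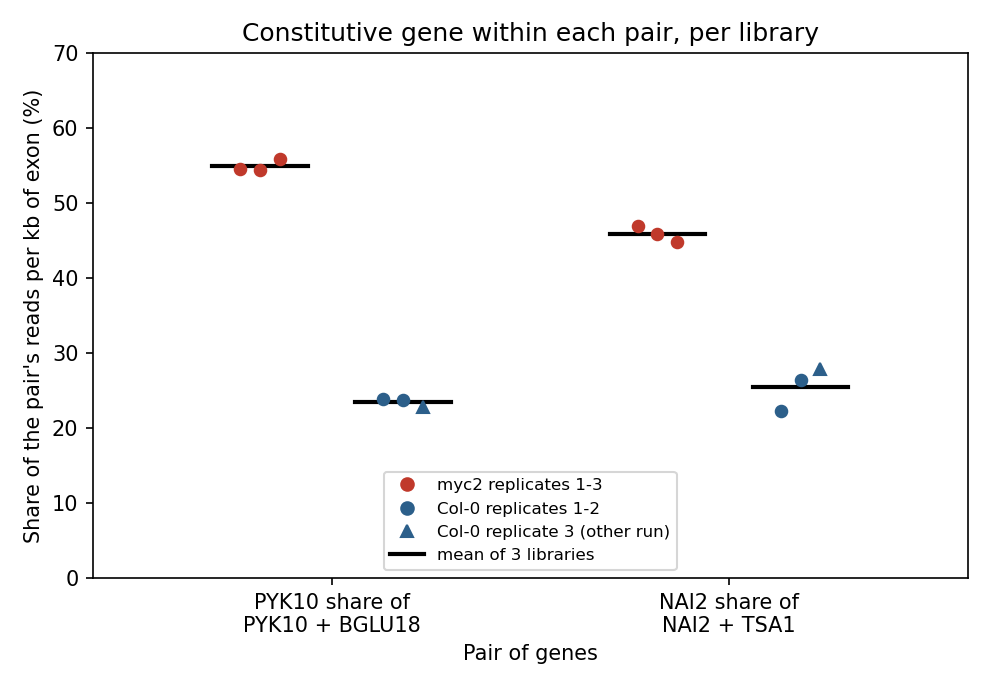
Share of the constitutive gene in the summed reads per kb of each pair (y axis, %), per library, with myc2 in red to the left and Col-0 in blue to the right; the triangle is Col-0 replicate 3 and black bars are means of 3 libraries. PYK10 lies near 54.9% in myc2 and 23.5% in Col-0, and NAI2 near 45.9% in myc2 and 25.6% in Col-0, without overlap.

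BGLU18 and TSA1 are neighbours on chromosome 1, in the same direction and 2191 bases apart, with no annotated gene between them. The genes flanking this pair had few or no reads. AT1G52390 before BGLU18 had 0, 4 and 0 reads in myc2 and 3, 2 and 4 reads in Col-0, and AT1G52415 after TSA1 had 0 reads in all 6 libraries, so that a change around the pair could not be measured there.

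The runs of Col-0 were compared directly, as the wild-type libraries carried 2 run identifiers. One of these holds a single library, so the spread in this fit comes from the other groups, and a difference of the run cannot be told apart from one of that library. Of the 8 tested members, 2 differed between Col-0 replicate 3 and Col-0 replicates 1 and 2, TSA1 and NAI2, where 15.0% of all 19569 genes in that fit did. TSA1 was 1.48-fold lower in replicate 3 (log2 -0.56, SE 0.0742, edgeR adjusted p = 9.34e-06) and NAI2 was 1.22-fold lower (log2 -0.29, SE 0.0943, edgeR adjusted p = 0.0392). The log2 fold change of NAI2 was accordingly 0.51 against Col-0 replicates 1 and 2 and 0.80 against replicate 3. The 4 higher and 2 lower members were called against Col-0 replicates 1 and 2, as were 43.2% of genes. They were also called against replicate 3, as were 44.1% of genes, again with the spread of the other groups standing for that of the single library. PYK10 and BGLU18 differed little between the Col-0 runs, by -0.16 (SE 0.0569, edgeR adjusted p = 0.0639) and -0.08 (SE 0.0521, edgeR adjusted p = 0.345) on the log2 scale.

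NAI1 (AT2G22770, chr2:9684562-9686613, plus strand), the bHLH factor required for constitutive ER bodies and for the expression of PYK10 and NAI2, did not pass the test. It had 3.07, 3.40 and 3.12 CPM in myc2, against 2.47, 3.66 and 2.62 CPM in Col-0, and the Col-0 values enclosed those of myc2. The log2 fold change was 0.15 (SE 0.175, 95% interval -0.24 to 0.53, edgeR adjusted p = 0.550), an interval that still allows a change as large as 0.53. With 58 to 93 reads per library, NAI1 was measured less precisely than PYK10 or BGLU18. The other 3 bHLH genes of its subgroup, IVa, were too low to be tested. AT2G22760, the gene before NAI1, had 0 reads in each myc2 library and 5, 4 and 7 reads in Col-0, while AT2G22750 and AT4G37850 each had 0 reads in myc2 and 1 read in Col-0. PMDH1, a peroxisomal malate dehydrogenase gene that follows NAI1, did not pass (log2 -0.15, SE 0.0836, edgeR adjusted p = 0.18).

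MEB1 and MEB2 are membrane proteins of the ER body that are related to the iron transporter VIT1 and lower metal sensitivity when expressed in yeast. MEB2 (AT5G24290, chr5:8263111-8265748, minus strand) had 65, 80 and 65 reads in myc2, against 37, 26 and 37 reads in Col-0, which is 2.46, 2.93 and 2.48 CPM in myc2 and 1.58, 1.25 and 1.27 CPM in Col-0. It was higher in every myc2 library, with a log2 fold change of 0.94 (SE 0.187, 95% interval 0.53 to 1.35, edgeR adjusted p = 0.00219), a 1.92-fold rise. MEB1 (AT4G27860, chr4:13873708-13876528, plus strand) had 8.82, 9.19 and 8.27 CPM in myc2, against 9.60, 9.49 and 9.33 CPM in Col-0. Although the groups did not overlap, MEB1 did not pass the test (log2 fold change -0.11, SE 0.102, 95% interval -0.33 to 0.11, edgeR adjusted p = 0.422), and the intervals of the 2 membrane protein genes do not overlap. Of the 8 VIT1-like genes including this pair, 5 were tested and 1, MEB2, was called, where 36.3% of all tested genes were. Without Col-0 replicate 3 the count was 2, in a fit where 8417 of all 19169 tested genes changed. AT1G21140 and AT1G76800 had log2 fold changes of 0.39 each (edgeR adjusted p = 0.191 and 0.0518) and AT3G25190 had 0.25 (edgeR adjusted p = 0.191). VIT1, the vacuolar iron transporter itself, had 5, 2 and 2 reads in myc2 and 5, 3 and 5 reads in Col-0, and AT3G43630 and AT3G43660 had 0 reads in all libraries.

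PBP1 (AT3G16420, chr3:5579290-5581032, plus strand, also JAL30) encodes a jacalin-related lectin of the cytosol that binds PYK10 when cells are broken. It had 167, 171 and 167 CPM in myc2, against 98.9, 101 and 101 CPM in Col-0. The libraries of each genotype lay close together and the groups did not overlap, with a log2 fold change of 0.75 (SE 0.0556, 95% interval 0.63 to 0.87, edgeR adjusted p = 9.22e-07), a 1.68-fold rise. PBP1 thus went with PYK10 and NAI2 in direction.

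The lectins (JAL) and GDSL lipase-like proteins (GLL) that join PBP1 in the PYK10 complex of broken cells were examined as a list of 10 genes, PBP1 included. Of these, 5 were higher in myc2, 1 was lower and 4 did not pass, where 17.6% of all tested genes were higher and 18.7% lower, and the median log2 fold change was 0.42 against 0.01 over all tested genes. The higher genes were all lectins. Besides PBP1 they were JAL34 (41.1 ± 1.14 CPM in myc2 and 16.8 ± 1.74 CPM in Col-0, log2 1.29, edgeR adjusted p = 4.73e-07), JAL33 (18.1 ± 1.25 CPM in myc2 and 7.52 ± 0.837 CPM in Col-0, log2 1.26, edgeR adjusted p = 3.87e-06), JAL31 (2.67 ± 0.453 CPM in myc2 and 0.987 ± 0.143 CPM in Col-0, log2 1.43, edgeR adjusted p = 0.000316) and JAL22 (log2 0.62, edgeR adjusted p = 0.00171). JAL23 stood apart, with 10.8, 11.8 and 12.2 CPM in myc2, against 46.3, 46.5 and 39.9 CPM in Col-0. It fell 3.81-fold (log2 -1.93, SE 0.0921, edgeR adjusted p = 2.21e-08), and its interval of -2.13 to -1.73 lies on the other side of 0 from that of its relative JAL22, 0.36 to 0.87. JR1 (JAL35), a jasmonate-responsive lectin gene, had 128 ± 3.34 CPM in myc2 and 130 ± 18.5 CPM in Col-0 and did not pass (log2 -0.02, SE 0.0913, edgeR adjusted p = 0.869). Its Col-0 libraries had 141, 141 and 109 CPM, so replicates 1 and 2 lay above all myc2 libraries and replicate 3 below them.

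The 3 lipase-like genes of the complex did not pass. The value for GLL22 was 0.22 on the log2 scale (SE 0.221, edgeR adjusted p = 0.468), for GLL23 (AT1G54010) 0.18 (SE 0.0769, edgeR adjusted p = 0.0965) and for MVP1 (GLL25), which is needed for normal ER shape, 0.01 (SE 0.106, edgeR adjusted p = 0.951). The lectin genes PBP1, JAL31, JAL33, JAL34 and JR1 lie close together on chromosome 3, and JAL31 begins 535 bases after PBP1, of which it is a close copy, so that reads of this pair could have been divided by the counting. NSP4, a nitrile specifier gene with a lectin domain that precedes PBP1 at a distance of 4531 bases, had 3.43 ± 0.149 CPM in myc2 and 6.36 ± 0.272 CPM in Col-0, a fall of 1.86-fold (edgeR adjusted p = 0.000185). Genes of this stretch therefore rose, fell or missed the threshold side by side.

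**Figure D4:**
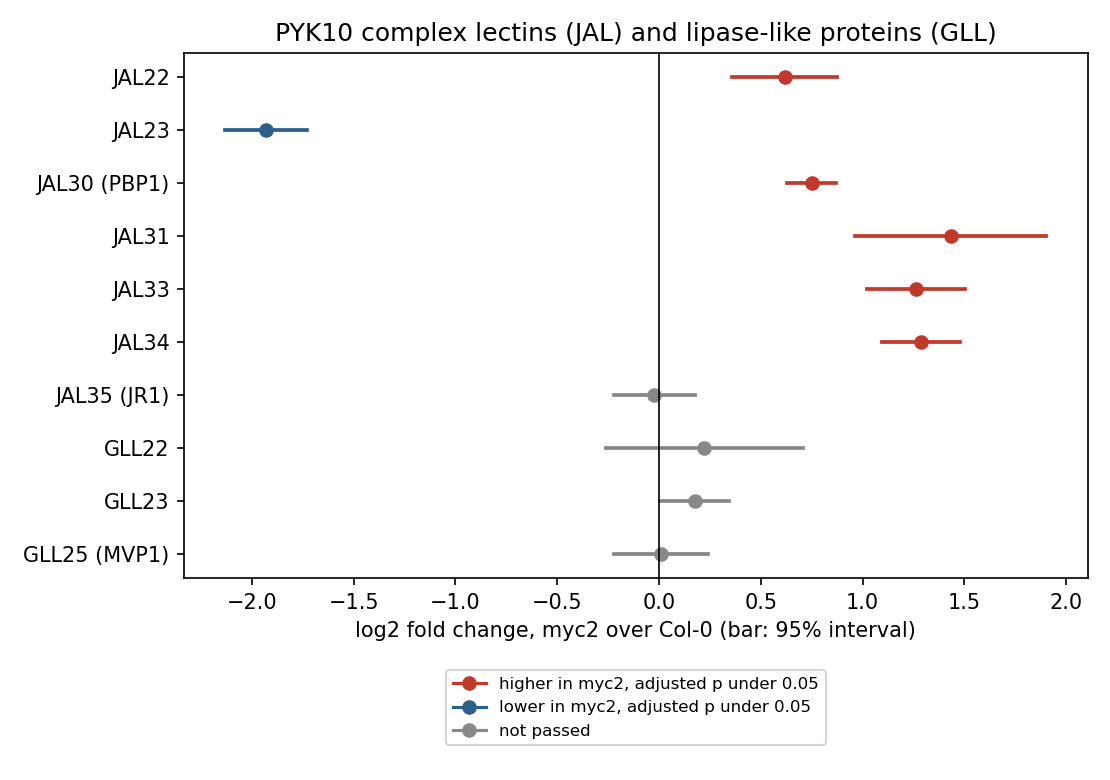
log2 fold change of the 10 genes of the PYK10 complex, myc2 over Col-0 (x axis), with 95% intervals as bars; red is higher in myc2, blue lower and grey not passed. JAL31, JAL33 and JAL34 lie between 1.26 and 1.43, JAL23 lies at -1.93, and JR1 and MVP1 lie at -0.02 and 0.01.

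The wider family of glucosidases to which the enzymes belong, BGLU18 to BGLU25, showed few other transcripts in these shoots. BGLU25 had 15.2 ± 0.535 CPM in myc2 and 18.0 ± 1.42 CPM in Col-0 and did not pass (log2 -0.24, SE 0.0923, edgeR adjusted p = 0.0624). BGLU19, BGLU20 (ATA27) and BGLU24 had 0 reads in myc2 and at most 3 reads in a Col-0 library. Of the 8 genes, 3 were thus tested, and BGLU18 and PYK10 changed, in opposite directions, where 36.3% of all tested genes changed. Without Col-0 replicate 3 the count of changed genes in this family was 3, in a fit where 8417 of all 19169 tested genes changed.

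General ER genes were read beside the members. Of 14 genes of ER protein folding, 7 were lower in myc2, where 18.7% of all tested genes were, and 7 did not pass, with a median log2 fold change of -0.22 against 0.01 over all tested genes. The clearest were CRT1b, a calreticulin (185 ± 1.98 CPM in myc2 and 261 ± 31.4 CPM in Col-0, log2 -0.50, SE 0.0802, edgeR adjusted p = 0.000537), and PDIL1-1, a protein disulfide isomerase (57.4 ± 2.43 CPM in myc2 and 76.0 ± 3.10 CPM in Col-0, log2 -0.40, SE 0.0661, edgeR adjusted p = 0.000591). The count of 7 fell to 4 without myc2 replicate 2 or without myc2 replicate 3, and was 10 without Col-0 replicate 3. The count over all genes moved in the same way, from 6889 of 18961 tested. It was 5101 of 19128 without myc2 replicate 2, 5032 of 19133 without myc2 replicate 3 and 8417 of 19169 without Col-0 replicate 3. That library was the lowest Col-0 library for CRT1b (279, 279 and 225 CPM in Col-0) but the highest for PDIL1-1 (74.0, 74.3 and 79.5 CPM in Col-0). Some genes that did not pass were lower in Col-0 replicate 3 than in every myc2 library, and others lay within the myc2 range there. Of the 3 genes of ER shape, the ARF exchange factor GNL1, the COPII coat gene ERMO2 and MVP1, 0 were called by edgeR, by DESeq2 or by limma-voom, and 0 had an unadjusted p under 0.05 (log2 fold changes -0.11, -0.03 and 0.01). Of all tested genes, 36.3% were called by edgeR, and 3 genes are too few to set against that share.

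Markers of cell types that carry ER bodies were set beside these values. PYK10 is known to be abundant in roots. The 15 root markers summed to 1.36 to 2.53 CPM in myc2 and 1.58 to 1.96 CPM in Col-0, with RHD6, IRT1 and MRN1 at 0 reads in all libraries and 6 to 9 markers with a read in myc2 and 7 to 9 in Col-0. Of these, ESB1 was tested and did not pass (log2 0.05, edgeR adjusted p = 0.932). NRT2:1, a root nitrate transporter gene too low to be tested, had 8, 19 and 19 reads in myc2 and 5, 0 and 0 reads in Col-0, without overlap, whereas THAS1 had 3, 0 and 1 reads in myc2 and 8, 4 and 7 reads in Col-0. The part of root tissue in the values of PYK10 was not tested. The 5 epidermis markers summed to 1263 to 1285 CPM in myc2 and 1129 to 1573 CPM in Col-0. Among them ATML1, KCS10 and KCS6 were higher in myc2 (log2 0.56, 0.33 and 0.33), LP1 was lower (log2 -0.57) and PDF1 did not pass, and their part in the rise of the constitutive members was not tested. The 6 photosynthesis genes used as shoot markers were abundant in all libraries, with sums of 35653 to 37025 CPM in myc2 and 38880 to 44848 CPM in Col-0. Of these genes, 2 were lower in myc2 and 4 did not pass. Beside the counts of epidermis and shoot markers, 17.6% of all tested genes were higher in myc2 and 18.7% lower.

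Neighbouring genes were examined because the labels and methods do not state the strand setting of the counting. AT3G09250 overlaps the 3′ end of PYK10 by 138 bases on the other strand. It was 1.25-fold lower in myc2 (14.7 ± 1.29 CPM in myc2 and 18.4 ± 0.255 CPM in Col-0, edgeR adjusted p = 0.0184), opposite to PYK10, and its level was a small part of that of PYK10. A noncoding RNA gene, AT4G27852, overlaps MEB1 by 200 bases and had 1 to 3 reads per library. Of the other neighbours, AT4G27870 after MEB1 was 1.20-fold higher in myc2 (edgeR adjusted p = 0.0296), and GMI1 and SS1, which flank MEB2, were 1.40-fold and 1.12-fold lower (edgeR adjusted p = 0.0109 and 0.0348), opposite to MEB2. AT3G15940 before NAI2, GSTU8 after PYK10 and AT1G66260 before BGLU21 did not pass (edgeR adjusted p = 0.497, 0.948 and 0.177), and AT3G15960 after NAI2 and AT1G66290 after BGLU22 had at most 1 read in a library.

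Finally, the genes with profiles most like those of the main enzymes were listed by Pearson's r of log2 CPM over the 6 libraries, among 13997 genes of at least 5 CPM. As the libraries form 2 genotype clusters, r mostly reads the step between genotypes and is given as a description. For PYK10 the closest were AT4G38860 (r = 0.9993, 21.8 ± 0.306 CPM in myc2 and 14.3 ± 0.473 CPM in Col-0), AT2G43340 (r = 0.9992, 42.8 ± 0.745 CPM in myc2 and 19.6 ± 1.69 CPM in Col-0) and BSK8 (r = 0.9990, 37.1 ± 0.607 CPM in myc2 and 23.3 ± 0.632 CPM in Col-0). For BGLU18 they were XT1 (r = 0.9998, 9.15 ± 0.265 CPM in myc2 and 23.6 ± 1.06 CPM in Col-0), AT1G66500 (r = 0.9998, 7.21 ± 0.256 CPM in myc2 and 33.1 ± 2.11 CPM in Col-0) and JAZ5 (r = 0.9996, 5.40 ± 0.405 CPM in myc2 and 44.6 ± 3.74 CPM in Col-0). TSA1 and the other members were not among these closest genes.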

How the data were processed

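Poly(A) RNA libraries (TruSeq) were prepared from shoots of 3 myc2 and 3 Col-0 samples. Per the submitters' processing notes, fastp, HISAT2, SAMtools and StringTie were used with TAIR10, and neither their versions nor the read counter and its strand setting are given there. The authors deposited whole-number read counts per gene for each library, not normalized. The fold changes and p-values of the authors' comparison, deposited as a separate table, were not used.

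The 10 members and all lists were chosen with earlier results of these data known. Of the 28775 genes, 23688 had a read and 18961 passed filterByExpr of edgeR 4.0.16 (R 4.3.3). TMM scaling (trimmed mean of M-values) was applied before the quasi-likelihood F-test of edgeR (glmQLFit robust, genotype as the only term). Benjamini-Hochberg adjusted p-values over all tested genes were called under 0.05, and the biological coefficient of variation was 8.44%. The calculation was tested on simulated data. Alternatives were other scalings (RLE, upper quartile), DESeq2 1.42.0, limma-voom (limma 3.58.1), filters of at least 1 read and of 5 CPM in 3 libraries, a replicate block, leaving out each library and fitting the Col-0 runs apart. CPM values use TMM-scaled totals, and values per kb use the merged exon length of the RefSeq TAIR10.1 annotation, to which 28009 identifiers (97.3%) matched. Coordinates and upstream sequences come from that assembly, since the count tables give identifiers only. Ratios were compared with exact two-sided permutation tests over libraries.

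Named were all members, all genes of the glucosidase, PYK10 complex, subgroup IVa bHLH, VIT1-like, ER shape and MYC lists, the 2 ER folding genes per direction with the smallest adjusted p among those that passed, the 3 genes most like PYK10 and BGLU18, and the gene on each side of a member. Marker genes were taken from lists for shoot, root and epidermis. Depth limits the low genes: with 21165967 to 30604815 counts per library, BGLU21 and BGLU22, with at most 9 reads in a library, were not tested.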

Additional observations from a re-analysis of the deposited data

How the results depend on the processing

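The 4 higher and 2 lower ER body members were called under all scalings, tools, left-out libraries and Col-0 runs tried (replicate 3 being a single library) and with the filter of at least 1 read. The filter of 5 CPM in 3 libraries left 3 higher and 2 lower, as it removes MEB2, and no member changed direction. Without 1 library, the log2 fold change ranged from 0.91 to 0.99 for PYK10, -1.05 to -1.01 for BGLU18, -0.89 to -0.59 for TSA1, 0.51 to 0.70 for NAI2, 0.74 to 0.76 for PBP1 and 0.85 to 1.05 for MEB2, and the difference in log2 ratio from -2.01 to -1.96 for BGLU18 to PYK10 and -1.40 to -1.18 for TSA1 to NAI2. NAI1 (0.05 to 0.32) and MEB1 (-0.15 to -0.07) did not pass in any of these. The count of changed genes ranged from 5032 to 8417 without 1 library and was 8623 against Col-0 replicate 3. Among the lists without 1 library, changed ER folding genes ranged from 4 to 10, the PYK10 complex from 6 to 8 (5 with the filter of 5 CPM), the glucosidase family from 2 to 3 and the VIT1-like genes from 1 to 2. The VIT1-like count was 0 with the filter of 5 CPM, without MEB2, and 2 without Col-0 replicate 3 or against Col-0 replicates 1 and 2. The subgroup IVa bHLH count was 1 with the filter of at least 1 read, which lets more genes in, and the ER shape count was 1 against Col-0 replicate 3 (the cause was not tested).

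The labels and methods do not say whether replicate numbers pair the samples. Deviations of same-numbered libraries from their genotype means correlated at -0.0249, -0.002 and 0.0229. These values show no sign of pairing, but so few libraries cannot exclude it. With the replicate block 6639 genes changed, and the members kept their calls (PYK10 0.96, BGLU18 -1.02, TSA1 -0.70, NAI2 0.61, PBP1 0.75 and MEB2 0.93). The paired exact test of both ratios gave p = 0.25, the smallest that 3 pairs allow.

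Levels of BGLU21 and BGLU22, with 0 to 9 reads per library, are limited by depth, and NAI1 and MEB2 rest on 26 to 93 reads per library.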
